A study of Homo sapiens with 12 samples.

Results

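The tripartite motif (TRIM) family was described in human THP-1 macrophages polarized towards M1 or M2 with or without the phthalate monoester MCHP (monocyclohexyl phthalate). Members were the rows of the deposited count table that are annotated as protein-coding and carry a symbol made of TRIM followed by a number. The rule took 78 of the 58907 rows of the table, which has 19951 protein-coding rows in all. Their chosen names do not cover every protein with the motif, so PML, MEFV and 5 further TRIM proteins under other symbols were followed as a separate list.

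THP-1 is a monocytic leukaemia line that becomes macrophage-like under phorbol ester, and the cells used here are the line labelled (PPRE)-eGEP-THP-1, a THP-1 derivative whose label elements are not expanded in the sources used here. All 12 libraries came from that single line, listed as a monocyte, after 48 h with 25 ng/mL of the phorbol ester PMA (phorbol 12-myristate 13-acetate) and a rest of 24 h. M1 cells then received lipopolysaccharide at 100 ng/mL with interferon gamma at 20 ng/mL, and M2 cells received interleukin 4 and interleukin 13 at 20 ng/mL each, for 24 h. During those 24 h the cells also had MCHP at 100 µM or the solvent DMSO, which gave 4 groups of 3 libraries that the series describes as biological replicates (M1 DMSO, M1 MCHP, M2 DMSO and M2 MCHP). No unpolarized group was analysed here, so an effect of the M1 agents and an opposite effect of the M2 agents cannot be told apart.

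TRIM proteins typically join a RING finger, which recruits a ubiquitin-loaded E2 enzyme, to 1 or more B-box zinc fingers and a coiled coil through which they assemble. The carboxy-terminal part differs between classes and picks the target: a PRY-SPRY domain in many antiviral members, a PHD finger with a bromodomain in the nuclear corepressors, NHL repeats in RNA-binding and developmental members, and a COS box in members that bind microtubules. In macrophages the family is best known for interferon-inducible members that restrict viruses or tag sensors such as RIG-I and their adaptors with ubiquitin.

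Libraries held 14352202 to 16871233 counts, and 99.8 to 99.9% of them fell in the 15252 genes kept for testing. M2 DMSO replicate 1 stood apart from the rest: the SD over genes of its log2 deviation from its group was 0.368, against 0.232 to 0.268 for the other 11 libraries. All 7 tested genes of the M1 check list, among them CXCL10 and GBP5, were higher in M1, and CCL22, TGM2, ALOX15 and CD209 were higher in M2. The labelled M2 state was only partly matched, since MRC1 had 2 counts in all and CLEC10A was higher in M1. Macrophage genes such as CSF1R, SPI1 and ITGAM were present, while CD68 had 36 counts, with 85.8% of its exon bases shared with other genes. Among markers of other cells, CD2, MS4A1, COL3A1, DCN and EPCAM had no count and CD3D, CD3E and CD3G had at most 3. Single genes of those lists were present all the same and differed with polarization: the summed T cell list was 15.0 to 16.6 CPM (the count over the TMM-scaled library total, times 1000000) in M1 DMSO and 28.3 to 38.4 in M2 DMSO, carried by TRAC. The fibroblast list was 117 to 121 against 25.3 to 34.3 CPM, carried by COL1A1, and the NK cell list 101 to 116 against 70.5 to 71.1 CPM, carried by NCAM1. The endothelial list stood at 888 to 933 CPM in M1 DMSO and 1146 to 1178 in M2 DMSO, carried by PECAM1 and VWF, with CDH5 at 33 counts in all. The B cell list was at most 1.65 CPM and the epithelial list at most 2.83 CPM in any library. The part of these genes in the TRIM results was not tested.

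Of the 78 members, 42 passed the filter on low counts and were tested, 17 had counts but did not pass it, and 19 had no count in any library. The 19 without a count were, for the most part, genes of multicopy primate groups, TRIM43, TRIM43B, TRIM48, TRIM49, TRIM49B, TRIM49C, TRIM49D1, TRIM49D2, TRIM51, TRIM51GP, TRIM64, TRIM64B, TRIM64C and TRIM77, together with TRIM42, TRIM60, TRIM61 and the readthrough models TRIM39-RPP21 and TRIM6-TRIM34. Near-identical copies and readthrough models can lose reads to their partners in counting, and a count of 0 in 12 libraries allows up to 3 counts and does not show absence. The 17 members with too few counts had at most 96 counts over all libraries, the highest being TRIM46. Chromosome 11 carries 23 of the members, 13 of them without a count, and chromosome 6 carries 9.

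The members' summed level was higher in M1 than in M2. It was 3196 ± 51.9 CPM in M1 DMSO, 3271 ± 42.2 in M1 MCHP, 2059 ± 142 in M2 DMSO and 2239 ± 31.4 in M2 MCHP (SD, n = 3 each). TRIM22 alone supplied 13.5 to 14.1% of the TRIM counts in M1 DMSO and 0.432 to 0.853% in M2 DMSO. Without TRIM22 the sums were 2755 ± 44.0 CPM in M1 DMSO and 2047 ± 145 in M2 DMSO. In bulk RNA, fewer cells with a transcript and less transcript per cell cannot be told apart.

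Per kilobase of gene model, the scale on which genes can be ranked against each other, TRIM28 had the highest mean level over all libraries at 81.9 CPM per kb. It was followed by TRIM22 at 38.3, TRIM8 at 37.2, TRIM25 at 32.1 and TRIM21 at 30.5 CPM per kb. TRIM28, also called KAP1, is the cofactor through which KRAB zinc finger proteins silence chromatin, and TRIM8 is a regulator of cytokine and NF-kB signalling. The order depended on polarization: in M1 DMSO, TRIM22 stood at 73.3 CPM per kb, next to TRIM28 at 79.4, while in M2 DMSO TRIM22 stood at 1.94 and TRIM54 was among the 3 highest at 34.9, next to TRIM8 at 36.2.

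The first comparison asked how the family differs between the M1 and M2 states in solvent. Interferon-linked antiviral TRIMs were higher in M1, with TRIM22 far ahead. The muscle-type member TRIM54 was the strongest of the few tested members that were lower. With edgeR's quasi-likelihood test and Benjamini-Hochberg adjustment over all 15252 genes, 24 of the 42 tested members passed an adjusted p of 0.05, 19 higher and 5 lower in M1. Over all genes tested, 42.5% passed, 21.6% higher and 20.9% lower. The members' median log2 fold change was 0.28, against -0.004 over all genes. Libraries of the 2 groups did not overlap for 28 members, or 66.7%, against 49.5% of all genes. Under scaling by library size alone, without TMM factors, the split was 16 higher and 7 lower, and the median of all genes moved to -0.13.

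**Figure D1:**
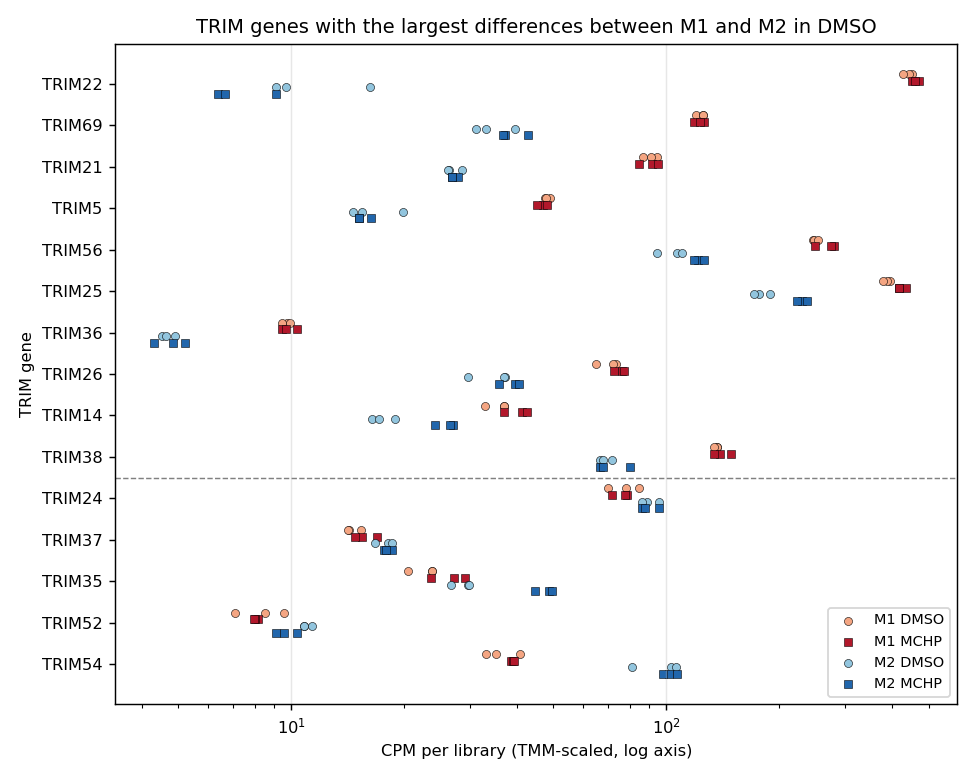
CPM in each of the 12 libraries (log axis) of the 10 TRIM genes with the largest rise and the 5 with the largest fall in M1 against M2 in DMSO, among those called, not overlapping between the groups and at a mean of at least 1 CPM; colours and symbols give the group and the dashed line separates the 2 directions. TRIM22 spans from 6.39 CPM in an M2 library to 472 in an M1 library, and TRIM54 is the gene whose M2 libraries lie farthest above its M1 libraries.

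All 10 tested members of the interferon-linked antiviral list (TRIM5, TRIM6, TRIM14, TRIM21, TRIM22, TRIM25, TRIM26, TRIM38, TRIM56 and TRIM69) were higher in M1 in both comparisons. The list was put together from their known roles with earlier results of these data in view, so its direction is a description. TRIM34, its remaining gene, was not tested. The list's median log2 fold change was 1.19 in DMSO and 1.08 under MCHP.

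TRIM22 is an interferon-induced ligase known for restricting HIV and other viruses. It lies on chromosome 11 (chr11:5689689-5737089, plus strand, build hg38), inside the span of the TRIM5 gene model on the opposite strand. Its level was 452, 445 and 427 CPM in the M1 DMSO libraries and 16.2, 9.71 and 9.12 CPM in the M2 DMSO libraries. The groups were far apart, with M2 DMSO replicate 1 the highest of the M2 libraries. The log2 fold change was 5.25 (SE 0.145, adjusted p = 1.14e-15), and 5.55 without that library.

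TRIM69, an interferon-induced member known for restricting vesicular stomatitis virus, stood at 120, 125 and 125 CPM in M1 DMSO and at 39.4, 33.0 and 31.1 CPM in M2 DMSO. Its log2 fold change was 1.84 (SE 0.0834, adjusted p = 1.70e-12). TRIM21, the cytosolic antibody receptor that directs antibody-coated virus to the proteasome, had 94.7, 90.9 and 86.4 CPM in M1 DMSO and 28.5, 26.4 and 26.2 CPM in M2 DMSO. In both genes every M1 library was more than 2 times as high as any M2 library. The log2 fold change of TRIM21 was 1.75 (SE 0.0710, adjusted p = 3.29e-13).

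TRIM5, whose alpha isoform recognises the capsid of incoming retroviruses, had 48.8, 47.5 and 47.9 CPM in M1 DMSO and 19.9, 15.4 and 14.7 CPM in M2 DMSO. M2 DMSO replicate 1 was again the highest M2 library, still well under every M1 library. The log2 fold change was 1.53 (SE 0.0967, adjusted p = 2.15e-10).

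TRIM56 and TRIM25 were the most abundant of the remaining antiviral members in CPM. TRIM56, a ligase linked to STING and double-stranded RNA signalling, stood at 247, 248 and 254 CPM in M1 DMSO and at 94.4, 107 and 110 CPM in M2 DMSO, a log2 fold change of 1.27 (SE 0.0663). TRIM25, the ligase that attaches ubiquitin to RIG-I, stood at 394, 387 and 377 CPM in M1 DMSO and at 189, 177 and 171 CPM in M2 DMSO, a log2 fold change of 1.11 (SE 0.0554). No library of M2 reached the lowest of M1 in either gene, and the adjusted p was 1.34e-11 for TRIM56 and 6.88e-12 for TRIM25.

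TRIM26, TRIM14 and TRIM38 changed by similar amounts. TRIM14, an adaptor at the mitochondrial protein MAVS that lacks a RING, had 36.8, 37.0 and 32.9 CPM in M1 DMSO and 16.4, 18.9 and 17.1 CPM in M2 DMSO, with log2 fold change 1.02 at an adjusted p of 2.89e-08. TRIM26, which acts in interferon beta induction, had a mean of 70.2 ± 4.50 CPM against 34.5 ± 4.29 CPM (SD, n = 3) and a log2 fold change of 1.02 (adjusted p = 1.34e-08). TRIM38, a regulator of Toll-like receptor and TNF signalling, had 136 ± 1.62 CPM against 68.6 ± 2.70 CPM (SD, n = 3) and a log2 fold change of 0.98 (adjusted p = 1.80e-09). TRIM6, which makes unanchored ubiquitin chains that activate the kinase IKK epsilon, was the lowest of the list at 9.59 ± 0.649 against 4.96 ± 0.518 CPM (SD, n = 3). Its log2 fold change was 0.95 (adjusted p = 0.000181), and 29.3% of its exon bases are shared with the TRIM6-TRIM34 readthrough model.

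The members' promoters were searched for a known binding sequence of the interferon response. Interferon-activated STAT and IRF factors bind interferon-stimulated response elements, whose core was searched as GAAA and GAAA with any 2 bases (NN) between them, on both strands, overlapping matches included. The windows ran from 250 bases before to 50 after each annotated start in RefSeq (GRCh38.p14), and a gene with several windows counted once. A window was found for 60 of the 78 members and held a match in 10 of them, or 16.7%. Over all genes with a window 4.38% held a match, and over all tested genes 4.20%. Among tested members that were higher in M1 in DMSO, 7 of 16 with a window held one, or 43.8%, against 7.96% of all genes higher in M1. None of the 3 lower members with a window and 1 of the 14 members that did not pass the test, TRIM16, held one. TRIM22 has no window in that table. The median log2 fold change was 1.02 for the 8 tested members with a match and 0.25 for the 25 without. A match is a description of letters and shows no binding.

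The windows of the 7 higher members with a match are shown because they hold the matches counted above. They are given in each gene's own 5′ to 3′ direction with the match in capitals (TTTC...TTTC where it lies on the opposite strand). The first match begins at base 18 in TRIM21, counting the start base itself. In TRIM14, TRIM26, TRIM5, TRIM69, TRIM44 and TRIM2 it begins 26, 194, 27, 62, 35 and 217 bases before the start. TRIM2 has several annotated starts, and only the window of the start used here holds a match. The 250 bases before the start are given for TRIM14 (chr9:98119223-98119472, minus strand) and TRIM26 (chr6:30213407-30213656, minus strand).
TRIM14: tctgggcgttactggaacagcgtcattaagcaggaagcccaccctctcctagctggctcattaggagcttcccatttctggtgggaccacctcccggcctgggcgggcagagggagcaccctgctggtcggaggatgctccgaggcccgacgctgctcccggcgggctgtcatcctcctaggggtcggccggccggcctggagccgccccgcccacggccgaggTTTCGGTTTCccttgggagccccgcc
TRIM26: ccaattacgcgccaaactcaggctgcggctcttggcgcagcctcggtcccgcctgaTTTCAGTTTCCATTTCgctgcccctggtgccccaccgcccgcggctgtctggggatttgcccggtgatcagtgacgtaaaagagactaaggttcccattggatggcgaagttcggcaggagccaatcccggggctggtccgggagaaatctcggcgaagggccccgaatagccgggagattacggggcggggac
Shorter stretches are given for the others: TRIM21 (chr11:4393670-4393685, minus strand, in its first exon), TRIM5 (chr11:5685082-5685111, minus strand), TRIM69 (chr15:44736456-44736485, plus strand), TRIM44 (chr11:35662720-35662769, plus strand) and TRIM2 (chr4:153151926-153151975, plus strand).
TRIM21: GAAACTGAAAGTGAAA
TRIM5: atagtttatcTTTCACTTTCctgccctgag
TRIM69: ctaatgagggTTTCTCTTTCtcttaagcaa
TRIM44: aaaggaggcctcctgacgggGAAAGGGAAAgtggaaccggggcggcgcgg
TRIM2: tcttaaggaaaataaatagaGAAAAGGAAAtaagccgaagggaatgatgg
The stretches of TRIM5 and TRIM69 lie wholly in exons of the longer GENCODE models of these genes, as their RefSeq starts are 253545 and 7540 bases downstream of the gene's 5′ end in the count table, and 21 bases of the TRIM26 stretch are exonic. TRIM21 and TRIM26 each hold a pair of overlapping matches, so their capitals run over 16 bases.

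**Figure D2:**
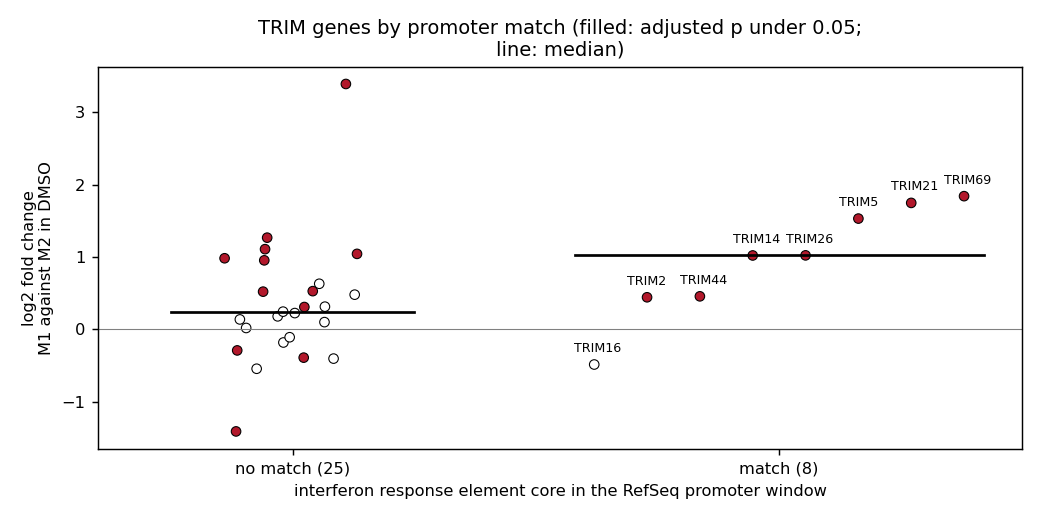
Log2 fold change of M1 against M2 in DMSO for the 33 tested TRIM genes with a RefSeq promoter window, split by whether the window holds the core GAAA-NN-GAAA on either strand; each point is a gene, filled points passed an adjusted p of 0.05 and lines are medians. The 8 genes with a match have a median of 1.02 and the 25 without have a median of 0.25; the highest point without a match is TRIM31.

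Further members higher in M1 had other roles. TRIM36, a COS box protein that binds microtubules, had 9.72, 9.44 and 9.93 CPM in M1 DMSO and 4.54, 4.65 and 4.90 CPM in M2 DMSO. These groups were narrow and well apart, with a log2 fold change of 1.04 (SE 0.128, adjusted p = 2.00e-06). TRIM31, a ligase that acts on MAVS and NLRP3, had 11, 13 and 7 counts in the M1 DMSO libraries and 0, 1 and 2 in the M2 DMSO libraries, 31 against 3 in all. The ratio scaled for depth was 11.7 (exact 95% interval 3.65 to 59.8, counting error only), and under MCHP 51 against 2 counts gave 26.8 (7.05 to 227). TRIM31 passed the filter on low counts only through its M1 libraries, and so had to differ. Without it, 23 of 41 members were called in DMSO, 18 of them higher, 20 were called in the same direction in both comparisons, and 7 of 15 higher members with a promoter window held a match. Smaller rises were called for TRIM44 (log2 0.46), which lacks a RING and carries a ubiquitin-protease-type zinc finger, TRIM68 (0.52), TRIM62 (0.53), TRIM27 (0.32), TRIM66 (0.31), TRIM2 (0.44) and TRIM11 (0.25). TRIM11 and TRIM62 were no longer called without M2 DMSO replicate 1, at 0.12 and 0.34. TRIM11 was also lost without any 1 of the M1 DMSO libraries (adjusted p up to 0.0889), and TRIM62 without M1 DMSO replicate 2 or 3 (adjusted p up to 0.105).

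TRIM54, known as MuRF3, is a COS box ligase of striated muscle that binds microtubules and sarcomere proteins. It had 35.2, 33.1 and 40.8 CPM in M1 DMSO and 80.8, 103 and 106 CPM in M2 DMSO, so every M2 library was well over the highest M1 library. The log2 fold change was -1.41 (SE 0.0955, adjusted p = 6.03e-10). Its muscle relatives TRIM63 and TRIM55 were not tested, with 35 and 25 counts in all.

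The other 4 lower members changed by less. TRIM35, a ligase reported to act on IRF7, had 23.8, 20.5 and 23.8 CPM in M1 DMSO and 26.7, 29.6 and 29.7 CPM in M2 DMSO, with a log2 fold change of -0.34 (adjusted p = 0.00749). TRIM52 stood at -0.39 (adjusted p = 0.016), TRIM37, a centrosome-regulating ligase, at -0.29 (adjusted p = 0.0183) and TRIM24 at -0.22 (adjusted p = 0.024). Their groups did not overlap but lay close together, and each call was lost without 1 or more single libraries. TRIM35 was at -0.27 (adjusted p = 0.0536) without M1 DMSO replicate 2, and TRIM52 at -0.28 (adjusted p = 0.0985) without M1 DMSO replicate 1. TRIM37 was lost without M1 DMSO replicate 1 or 3 or M2 DMSO replicate 3 (adjusted p up to 0.0674), and TRIM24 without M1 DMSO replicate 2 or 3 (adjusted p up to 0.157). TRIM52 shares 28.5% of its exon bases with an antisense model, and the strand setting of the counting is not given in the sources used here.

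Of the 4 nuclear corepressors, 1 was higher (TRIM66) and 1 lower (TRIM24, a cofactor of nuclear receptors), a share near the 42.5% of all genes. TRIM28 had 326, 318 and 318 CPM in M1 DMSO and 239, 367 and 358 CPM in M2 DMSO, so its M2 spread came from replicate 1. The log2 fold change was -0.005 (95% interval -0.23 to 0.22, adjusted p = 0.976), and without that library it was -0.18 and passed the test (adjusted p = 0.00219). TRIM33, a partner of SMAD proteins in TGF-beta signalling, stood at 110 ± 5.90 against 99.6 ± 7.18 CPM (SD, n = 3), a log2 difference of 0.14 (adjusted p = 0.0912). Without M2 DMSO replicate 1 that difference was 0.19 and passed the test (adjusted p = 0.00425).

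Of the NHL repeat members, TRIM2, a neuronal ligase, was higher in M1 at 22.0 ± 1.59 against 16.2 ± 0.419 CPM (SD, n = 3), with a log2 fold change of 0.44 (adjusted p = 0.000659). TRIM3 and TRIM32, a ligase mutated in limb-girdle muscular dystrophy, did not pass the test, at log2 differences of 0.31 (95% interval -0.13 to 0.76) and -0.18 (-0.62 to 0.26). TRIM71, the stem cell regulator LIN41, had 2 counts in M1 DMSO and 19 in M2 DMSO, and 7 and 29 under MCHP. Scaled for depth, these ratios were 0.119 (exact 95% interval 0.0135 to 0.494) and 0.254 (0.0939 to 0.592). TRIM71 was not kept by the filter with all 12 libraries. With no filter, and in most fits with 1 library left out, it was tested and called lower in M1 in DMSO. The log2 fold changes there were -3.24 to -2.31 and rest on the few counts given above. Where the filter kept TRIM71, that was through M2 MCHP libraries, so it had to differ between M1 and M2 under MCHP. Its M2 DMSO libraries, at 0.342 to 0.412 CPM, were under the filter's cutoff of 0.646 CPM with all 12 libraries.

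A neighbouring group on the short arm of chromosome 6, TRIM31, TRIM40, TRIM10, TRIM15, TRIM26 and TRIM39, lies between positions 30102897 and 30343729 (build hg38). TRIM26 passed the test as described, TRIM31 rested on few counts as given above, and TRIM39 did not pass in DMSO (log2 0.23). TRIM10 had 12 counts in M1 DMSO and 0 in M2 DMSO, and TRIM15 had 5 and 0. With the 0 set to a floor of 3 counts over the group, the ratios scaled for depth were 4.53 and 1.89. Under MCHP the counts were 11 and 0 for TRIM10 and 9 and 0 for TRIM15, with ratios of 3.86 and 3.16. These ratios leave out the counting error of the M1 counts, so they are not lower bounds. Neither gene passed the filter on low counts. TRIM40 had 2 counts in all.

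The same comparison under MCHP used the other 6 libraries, sharing only the estimates of spread and scaling with the first. Again 24 of 42 members were called, 19 higher and 5 lower in M1, against 44.6% of all genes, 21.9% higher and 22.7% lower. In both comparisons 21 members were called in the same direction, and none was called in opposite directions. Called in DMSO only were 3 (TRIM37, TRIM52 and TRIM62), and under MCHP only 3 (TRIM39, TRIM58 and TRIM65). The share of all genes called in both is not given here. The 21, or 20 without TRIM31, is therefore not read as particular to the family. TRIM22 had 472, 452 and 459 CPM in M1 MCHP and 6.39, 9.11 and 6.64 CPM in M2 MCHP, a log2 fold change of 5.95 (SE 0.154, adjusted p = 3.93e-16). TRIM5, TRIM21, TRIM69 and TRIM56 stood at log2 1.59, 1.73, 1.65 and 1.13, and TRIM38, TRIM26, TRIM36 and TRIM6 at 0.98, 0.96, 1.04 and 1.03. TRIM54 stood at -1.39 (SE 0.0951). TRIM14, TRIM25 and TRIM35 stood at 0.64, 0.88 and -0.84, where they had stood at 1.02, 1.11 and -0.34 in DMSO. TRIM58, a low member with 1.34 against 2.82 CPM, was called at -1.06 (adjusted p = 0.00207). By scaling on library size alone, the split was 15 higher and 8 lower. Under MCHP, TRIM66 at 0.24 was lost without any 1 of 8 libraries (all but the M2 DMSO libraries and M2 MCHP replicate 1, adjusted p up to 0.188) and TRIM39 at 0.38 without any 1 of 5 (M1 MCHP replicates 2 and 3 and the M2 MCHP libraries, adjusted p up to 0.111). TRIM11, TRIM24, TRIM65 and TRIM68 were each lost without 1 to 3 single libraries (adjusted p up to 0.0797).

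**Figure D3:**
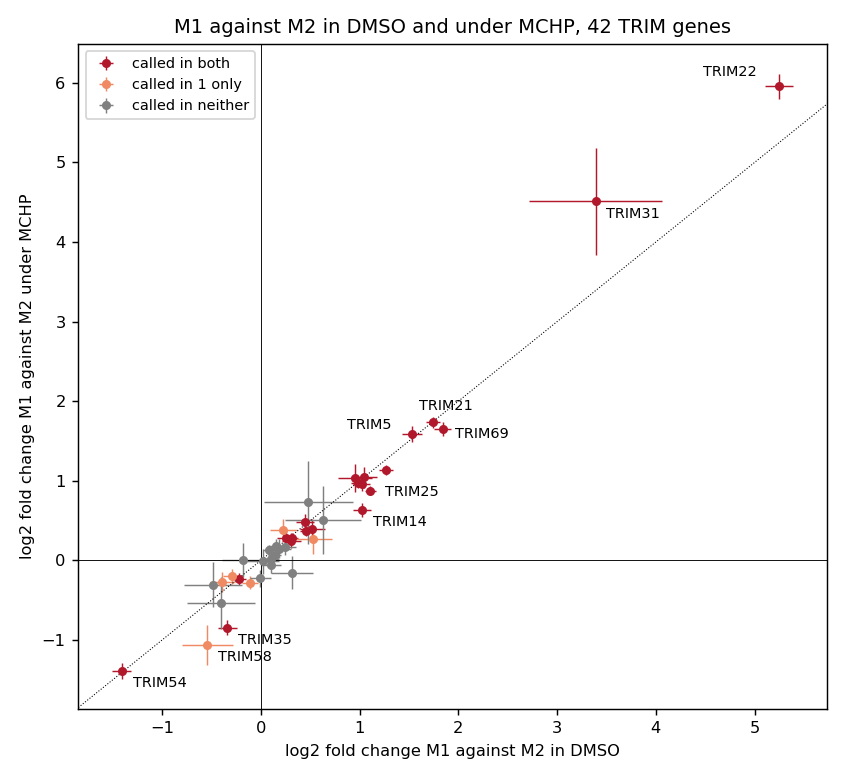
Log2 fold change of M1 against M2 in DMSO (x) and under MCHP (y) for the 42 tested TRIM genes, with SE bars; the dotted line marks equal values and colours show where the adjusted p passed 0.05. The 21 genes called in both have the same direction on both axes, with TRIM22 at 5.25 and 5.95. TRIM31, which rests on few counts, lies at 3.39 and 4.51. Off the line are also TRIM35 at -0.34 and -0.84 and TRIM14 at 1.02 and 0.64.

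The second question was what MCHP did within each state. In M2, TRIM35, TRIM14, TRIM25 and TRIM56 were higher with MCHP and TRIM22 was lower. These were 5 of the 42 tested members, or 11.9%, against 5.11% of all genes, and the 4 higher and 1 lower compare with 2.92% and 2.18% of all genes. The members' median log2 fold change was 0.05, against -0.0003 over all genes. Libraries did not overlap for 14 members, or 33.3%, against 20.8% of all genes. These comparisons share their DMSO libraries with the first comparison of M1 and M2. Of the T cell list, TRAC was also lower with MCHP in M2, and the list's sum was 17.0 to 23.6 CPM in M2 MCHP. Its part in these results was not tested.

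TRIM35 had 48.6, 44.7 and 49.7 CPM in M2 MCHP and 26.7, 29.6 and 29.7 CPM in M2 DMSO. The groups were wide apart, with a log2 fold change of 0.73 (SE 0.0907, adjusted p = 9.34e-05). TRIM14 had 24.1, 27.0 and 26.4 CPM with MCHP and 16.4, 18.9 and 17.1 CPM without, a log2 fold change of 0.56 (SE 0.0924, adjusted p = 0.00124). TRIM25 had 230, 238 and 223 CPM with MCHP and 189, 177 and 171 CPM without, a log2 fold change of 0.36 (SE 0.0552, adjusted p = 0.000681). All 3 were called under each of 19 alternative analyses.

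TRIM56 and TRIM22 were less settled. TRIM56 had 122, 119 and 126 CPM with MCHP and 94.4, 107 and 110 CPM without, a log2 fold change of 0.24 (SE 0.0664, adjusted p = 0.0479), and was called in 6 of the 19 alternatives. The call was lost without any 1 of 9 libraries, all but M1 MCHP replicate 1 and M2 DMSO replicates 1 and 3 (log2 0.20 to 0.26, adjusted p 0.0664 to 0.191). TRIM22 had 6.39, 9.11 and 6.64 CPM with MCHP and 16.2, 9.71 and 9.12 CPM without, so the groups parted by less than the gap within M2 DMSO. Its log2 fold change was -0.64 (SE 0.175, adjusted p = 0.0400) and it was called in 8 of the 19 alternatives. The call was lost without any 1 of 9 libraries, all but M2 MCHP replicate 2 and M2 DMSO replicates 2 and 3 (adjusted p 0.0564 to 0.178), and without M2 DMSO replicate 1 the log2 fold change was -0.34 (adjusted p = 0.0701).

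Without that library 46 members were tested, of which 6 were higher and none was lower. Of all genes 11.2% were then called, 6.29% higher and 4.89% lower. TRIM33 at 0.22 (adjusted p = 0.00624) and TRIM69 at 0.28 (adjusted p = 0.00919) were called in addition to TRIM14, TRIM25, TRIM35 and TRIM56. With all libraries, TRIM33 stood at 0.17 and TRIM69 at 0.18 and neither passed the test. Among the 10 tested interferon-linked members, 3 were higher with MCHP in M2 with all libraries (TRIM14, TRIM25 and TRIM56) and 1 lower (TRIM22), and without that library TRIM69 joined the higher ones and TRIM22 was not called. TRIM5, TRIM21 and TRIM38 stood at -0.10, 0.01 and 0.06 with all libraries and at 0.05, 0.05 and 0.09 without it, and were called in neither. None of the corepressors or NHL members passed the test with all libraries. TRIM54 stood at 0.08 (95% interval -0.11 to 0.27).

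**Figure D4:**
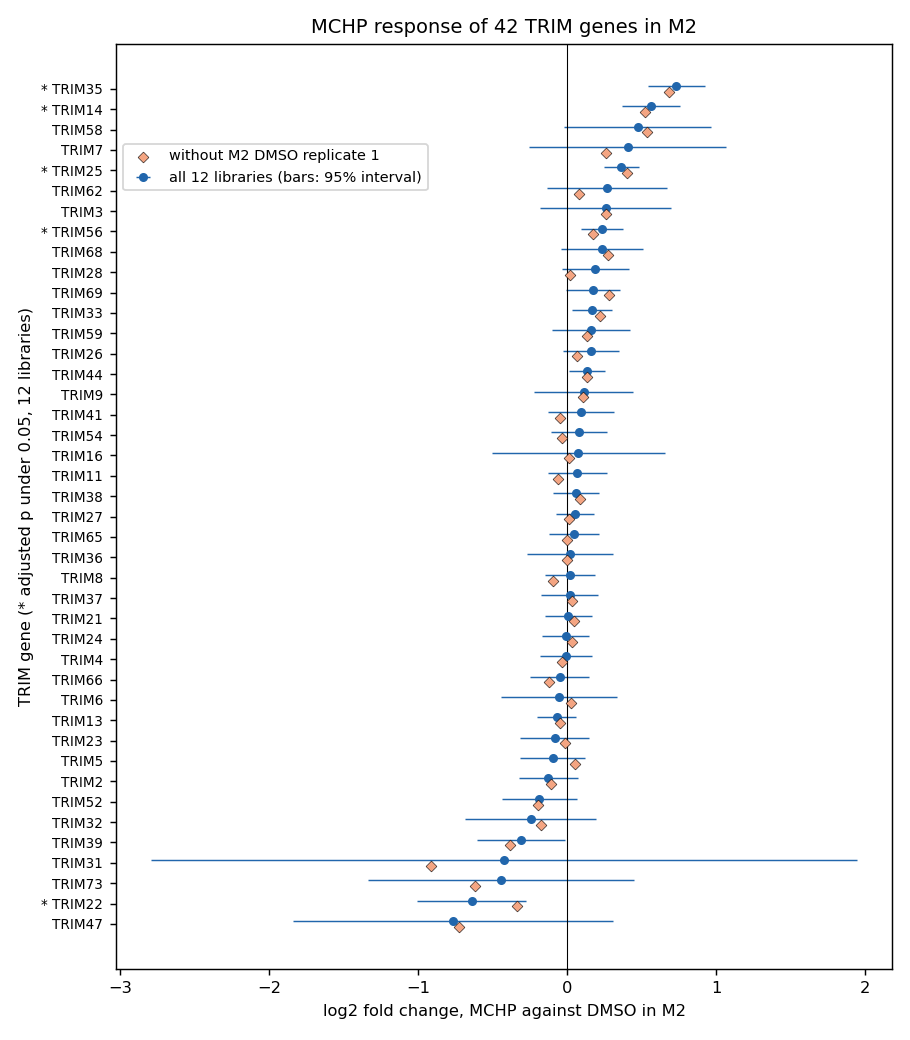
Log2 fold change of MCHP against DMSO in M2 for the 42 tested TRIM genes, with 95% intervals from all 12 libraries (circles) and the value without M2 DMSO replicate 1 (diamonds); an asterisk marks an adjusted p under 0.05. TRIM35, TRIM14 and TRIM25 stay high in both, at 0.73, 0.56 and 0.36 with all libraries, and TRIM22 moves from -0.64 to -0.34.

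In M1, MCHP gave no call among the 42 members with edgeR, against 0.0852% of all genes. Unadjusted p-values under 0.05 were found for 2 of the 42 members, TRIM25 and TRIM35, against 5.36% of all genes. The smallest adjusted p was 0.861. DESeq2 and limma-voom gave 0 calls as well, and edgeR on the 6 M1 libraries alone called TRIM25 (log2 0.13, adjusted p = 0.0268). TRIM25 had 435, 418 and 416 CPM with MCHP and 394, 387 and 377 CPM without. These groups did not overlap, at a log2 difference of 0.13 (95% interval 0.02 to 0.25). TRIM35 stood at 0.23 (95% interval 0.02 to 0.43), TRIM14 at 0.18 (-0.004 to 0.36) and TRIM56 at 0.10 (-0.03 to 0.24).

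The difference between the MCHP responses, M1 minus M2, was tested as an interaction. It passed for none of the 42 members, against 0.164% of all genes, and the smallest adjusted p was 0.176. Unadjusted p-values under 0.05 were found for 4 of the 42 members, against 8.84% of all genes. Those 4 were TRIM35 at -0.51 (95% interval -0.78 to -0.23), TRIM22 at 0.71 (0.27 to 1.14), TRIM14 at -0.39 (-0.65 to -0.12) and TRIM25 at -0.23 (-0.39 to -0.07). DESeq2 gave 0 calls. Without M2 DMSO replicate 1, 2 of 46 tested members passed, against 2.46% of all genes. They were TRIM25 at -0.27 (adjusted p = 0.0114) and TRIM35 at -0.46 (adjusted p = 0.0354).

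**Figure D5:**
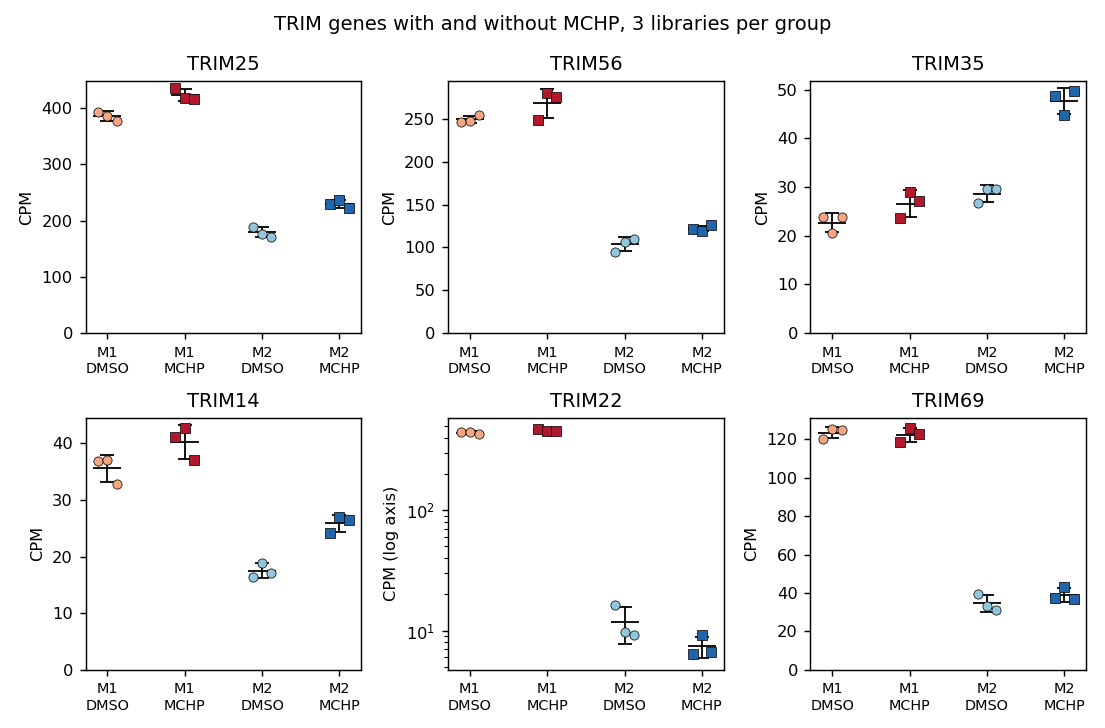
CPM in each library (points), with group means and SD bars (n = 3), for the 5 TRIM genes called with MCHP in M2 and for TRIM69, which was called without M2 DMSO replicate 1; the TRIM22 axis is logarithmic and the others start at 0. TRIM35 is highest in the 3 M2 MCHP libraries, from 44.7 to 49.7 CPM, while TRIM25 and TRIM56 stay higher in every M1 library than in any M2 library.

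Genes that work with TRIM proteins were followed from lists of related function, whose counts stand beside 21.6% higher and 20.9% lower of all genes in M1 against M2 in DMSO. Of the TRIM proteins under other symbols, PML, the organiser of nuclear bodies, and MEFV (pyrin), an inflammasome sensor, were tested and both were higher in M1. PML had 313 against 45.7 CPM in DMSO (log2 fold change 2.77, adjusted p = 1.53e-15), and MEFV 11.8 against 1.13 CPM (log2 fold change 3.37, adjusted p = 8.98e-11). MID1, MID2, TRIML1, TRIML2 and RNF207 were not tested. Among 17 tested RIG-I, STING and Toll-like receptor signalling genes, 11 were higher and 1 lower in M1 in DMSO, and those with the smallest p were IRF7 at log2 1.84, DDX58 (RIG-I) at 1.96 and IFIH1 (MDA5) at 1.87. Of 14 tested interferon signalling genes, 8 were higher and 1 lower, and those with the smallest p were the factors IRF1 at 3.88 and STAT2 at 2.26 and the ubiquitin-like modifier ISG15 at 2.47.

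Of 17 tested E2 enzymes and ubiquitin genes, which load and supply the ubiquitin that RING ligases transfer, 6 were higher and 2 lower in M1 in DMSO, a share near the 42.5% called over all genes. Their median log2 fold change was 0.07. UBE2L6, the E2 that conjugates ISG15, stood at 2.44, ahead of UBE2E2, another E2 enzyme, at 0.74. UBE2D2 and UBE2N, E2 enzymes with which many RING ligases work, stood at -0.15 and -0.03 and did not pass the test. In M1 against M2 under MCHP, 7 of the 17 genes were higher and 4 lower, against 21.9% and 22.7% of all genes. With MCHP in M2, none of these 17 genes was called, against 2.92% of all genes higher and 2.18% lower. The genes of the other lists named next were chosen after their values were seen. In the same comparison MAVS was higher (0.25, adjusted p = 0.0364) and NLRP3, an inflammasome sensor, lower (-0.22, adjusted p = 0.0423) among the 17 RIG-I, STING and Toll-like receptor signalling genes. Of the 14 interferon signalling genes, 3 were lower and none higher: IFNGR1, a chain of the interferon gamma receptor, at -0.36, STAT2 at -0.30 and IRF9, its partner, at -0.84. The macrophage list had 3 of 9 tested genes lower (CSF1R, FCER1G and TYROBP), and the M2 check list 1 of 6 higher (CCL22) and 3 lower (CCL13, CD209 and CLEC10A). Of the M1 check list, TNF was lower (-0.33). Without M2 DMSO replicate 1, IRF9 was at -0.56 and lost its call (adjusted p = 0.0847), and the others named here kept their direction and their call. In that fit 11.2% of all genes were called. Called there in addition were TMEM173 (STING, -0.33), IRF7 (-0.19), TAB3 (0.21), TYK2 (-0.24), ITGAM (-0.14), SPI1 (-0.18) and ALOX15 (-0.86). In M1 no gene of these lists was called with MCHP, by edgeR.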

How the data were processed

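RNA was measured in 12 libraries. Per the labels' protocols, poly-T-purified mRNA was fragmented and reverse transcribed with random hexamers. The authors deposited raw counts per gene, whole numbers with no normalization, beside each gene model's length. The submitters' processing notes list, without roles, featureCounts (1.5.0-p3), HISAT2 (2.0.5) and build hg38, besides fastp, StringTie and DESeq2 (1.20.0). The strand setting is not given in the sources used here. Lengths of all 78 members equal the exon unions of GENCODE release 29. Of the members, 48 share no exon base with another gene and 10 share over 25%, where counting could split or mix reads.

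Groups came from the labels' condition and treatment. The counts were tested with edgeR 4.0.16 (R 4.3.3), using filterByExpr over the 4 groups (10 counts minimum), TMM scaling and the quasi-likelihood test on group means over all 12 libraries, with 8 residual degrees of freedom. P-values were adjusted by Benjamini-Hochberg over all 15252 genes, and called means an adjusted p under 0.05. The test was checked on simulated data. CPM used TMM-scaled totals. Totals ranged from 14352202 to 16871233 counts, and intervals of count ratios cover counting error only. Alternatives were DESeq2 size factors, library size alone, no filter, a replicate block, DESeq2 1.42.0, limma-voom (limma 3.58.1), only the libraries compared, and each library left out.

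Members and lists were chosen with earlier results of these data known. Named were members called with MCHP, up to 10 in each direction with the largest called and non-overlapping differences between M1 and M2 in DMSO at a mean of at least 1 CPM, all tested members of the interferon-linked, corepressor and NHL lists, the 5 highest per length, called TRIM proteins under other symbols and up to 3 genes of each other list by smallest p, of which 1 gene is not reported here. Other members are named for low counts, for calls in 1 comparison, or for their place in the genome, chosen after their values were seen. Promoter sequences are from RefSeq (GRCh38.p14).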

Additional observations from a re-analysis of the deposited data

How the results depend on the processing

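Each comparison was repeated under 19 alternatives (18 for the difference), and none of the 39 values of named members that had passed the test changed sign. Of the 76 that had not passed it, 34 changed sign under some alternative. Calls for M1 against M2 numbered 20 to 26 in DMSO and 21 to 28 under MCHP. The number of members tested and the share of all genes called changed between alternatives, so these ranges are counts alone. Without M2 DMSO replicate 1, 46 members were tested, and 46.2% of all genes were called in DMSO and 51.3% under MCHP. Of the named members called with all 12 libraries, 13 of 18 in DMSO and 14 of 16 under MCHP passed in every alternative. With MCHP in M2 the count was 5, but 3 with limma-voom and 3 with only the libraries compared, where TRIM22 and TRIM56 were lost, and leaving out 1 library gave 3 to 6. In M1 it was 0, or 1 with only the libraries compared (TRIM25). For the difference it was 0, or 1 with no filter on low counts (TRIM22), and leaving out 1 library gave 0 to 2. The cause was not tested. With the replicate block, the counts were 24, 23, 0, 5 and 0 in the order M1 against M2 in DMSO and under MCHP, MCHP in M1 and in M2, and the difference. Replicate numbers did not pair the samples: same-numbered libraries correlated at -0.06 to 0.05 over 18 pairs. Members under the filter had at most 96 counts each, and limited depth, reads lost to partner genes and lack of expression cannot be told apart for them.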
